A study of Homo sapiens with 12 samples.

Results

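HSPA5 and 9 further chaperones and folding enzymes of the endoplasmic reticulum (ER) were followed in MV-4-11 cells, an established human acute myeloid leukaemia line. The genes were chosen by symbol as HSPA5, HSP90B1, CALR, CANX, PDIA3, PDIA4, PDIA6, DNAJB11, HYOU1 and MANF. All 10 were found among 20036 genes in the deposited expression table, and all 10 were among the 11149 genes with enough signal to test. The study's title names the ceramide transfer protein CERT, inhibitors of the kinase FLT3, and GRP78, which is the protein made from HSPA5. Its cells received DMSO (the vehicle), HPA-12 (a ceramide-like inhibitor of CERT), crenolanib (a FLT3 inhibitor) or the combination of HPA-12 and crenolanib, with 3 RNA-seq libraries in each of the 4 groups. The labels call every sample wild type and give bone marrow as the tissue. They give 48 h for the drug treatments, state no time for DMSO and no doses. All libraries came from 1 cell line, and nothing in the labels says that replicates were separate cultures, so p-values measure only the spread between these libraries. Levels are in FPKM, fragment counts divided by transcript length and by the library's mapped fragments. Because the samples are bulk RNA, fewer cells of a type and less RNA per cell cannot be told apart.

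Secreted and membrane proteins fold in the ER, and the chaperones there work as linked systems. HSPA5 is the ER's HSP70 and holds unfolded chains with help from J-domain partners and nucleotide exchange factors, whereas CALR and CANX bind glycoproteins through their sugars and pass them to the oxidoreductase PDIA3. When unfolded protein builds up, the unfolded protein response raises transcription of many of these genes through ATF6 and XBP1, and cells that make much secreted protein depend on it. ATF6 and XBP1 are known to act with NF-Y at ER stress elements, short promoter sequences that join a CCAAT box to a CCACG box.

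RefSeq promoter windows on GRCh38.p14, running from 250 bases before to 50 bases after each annotated start, were read to show which members carry such an element. The windows covered 9 members and PDIA3 had no entry in the table. The element was searched on both strands as CCAAT and CCACG separated by any 9 bases. An exact match was found in 5 of the 9 members, and in 25 of 27305 genes with a window (0.0916%) or 14 of 9058 tested genes (0.155%). HSPA5 is shown with 160 bases of its upstream sequence on the minus strand (chr9:125241344-125241503). Its capitals mark 2 CCAAT boxes and the whole of the match, which lies 66 to 48 bases before the start.
HSPA5: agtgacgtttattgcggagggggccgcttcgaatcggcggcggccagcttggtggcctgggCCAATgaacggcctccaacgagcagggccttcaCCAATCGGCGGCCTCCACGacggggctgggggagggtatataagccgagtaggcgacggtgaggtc
The other matches are shown with their flanks, written 5′ to 3′ on the strand of the gene, with the match in capitals. They lie at chr12:103930204-103930246 and chr12:103930309-103930351 for HSP90B1, chr19:12938372-12938414 for CALR, chr5:179698766-179698808 for CANX (1 of its 4 windows), all on the plus strand, and at chr2:10812841-10812883 on the minus strand for PDIA6.
HSP90B1, first match: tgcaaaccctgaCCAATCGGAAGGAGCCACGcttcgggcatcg
HSP90B1, other match: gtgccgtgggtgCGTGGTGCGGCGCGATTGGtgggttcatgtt
CALR: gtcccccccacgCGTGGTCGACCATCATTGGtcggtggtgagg
CANX: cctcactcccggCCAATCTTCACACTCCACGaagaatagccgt
PDIA6: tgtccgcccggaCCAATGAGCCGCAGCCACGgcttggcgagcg
The CALR match and the other HSP90B1 match run on the opposite strand, so they begin with CGTGG and end with ATTGG. HYOU1 instead held the compact form known as ER stress element II, searched as ATTGG, any base and CCACG, at chr11:119057368-119057402 and chr11:119057262-119057296 (minus strand, matches on the opposite strand).
HYOU1, far match: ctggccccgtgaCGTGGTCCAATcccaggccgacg
HYOU1, near match: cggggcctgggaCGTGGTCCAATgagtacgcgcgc
The compact form matched 19 of the 27305 genes (0.0696%), HYOU1 alone among the members. The 8-letter element TGACGTGG matched 253 genes (0.927%), among the members HYOU1 alone, where it overlaps the far match. The windows of PDIA4, DNAJB11 and MANF held no exact match to any of the 3 patterns. These matches describe letters in the reference sequence and no binding was measured. The elements were already known for genes of this response, so matches among the members are no independent finding. The shares were not tested.

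The libraries of the combination group stood apart from the rest. Estimated depth, read from the steps between low values, was 13.6 to 16.0 M reads (megareads) per DMSO library, 12.1 to 12.8 M for HPA-12, 10.1 to 10.2 M for crenolanib and 4.4 to 5.07 M for the combination. The 13 mitochondrially encoded genes took 19.6 to 20.003%, 21.1 to 22.1%, 35.9 to 36.2% and 61.6 to 62.6% of all FPKM in those groups. The 12 erythroid markers summed to 77.3 to 83.9 FPKM in DMSO, 217 to 223 under HPA-12, 4374 to 4652 under crenolanib and 27550 to 27996 under both, with 3, 7, 12 and 12 of them at a mean of at least 1 FPKM. HBA2 was listed at 0 in every HPA-12 library. All 9 myeloid leukaemia markers had a mean of at least 1 FPKM in each group. In DMSO 2 of 7 stromal and epithelial markers (KRT8 and KRT18) and 3 of 7 lymphoid markers reached that mean. The lymphoid marker NKG7 averaged 60.9 FPKM in DMSO, whereas the epithelial marker EPCAM was listed at 0 in every DMSO library. The part of these shifts in the results on the chaperones was not tested. Dividing each library by the median ratio of its genes to their geometric mean (median-ratio scaling) moved the median of all genes by 0.51 to 0.53 on the log2 scale in comparisons that hold the combination group. Fitted differences after that scaling are therefore given beside those of the combination group.

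In DMSO cells CALR, the soluble lectin chaperone and calcium store of the ER, was the most abundant of the 10 transcripts at 607 ± 47.8 FPKM (SD, n = 3). HSPA5 at 82.3 ± 4.64 FPKM and HYOU1 at 80.7 ± 1.32 FPKM followed, and their libraries overlapped. PDIA4 (71.1 ± 5.27 FPKM) stood apart from the next pair, PDIA6 (43.5 ± 1.42 FPKM) and CANX (42.6 ± 1.71 FPKM), which overlapped. PDIA3, MANF, HSP90B1 and DNAJB11 then followed at 27.7 ± 0.061, 23.3 ± 1.27, 14.2 ± 0.534 and 6.13 ± 0.663 FPKM, with no overlap between neighbours. CALR stayed at the top and DNAJB11 at the bottom in all 4 groups. With HPA-12, CALR, CANX and HYOU1 ranked above HSPA5, while only CALR ranked above HSPA5 with crenolanib or with the combination. In the combination group every neighbouring pair in the order from CANX down to PDIA3 overlapped.

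**Figure D1:**
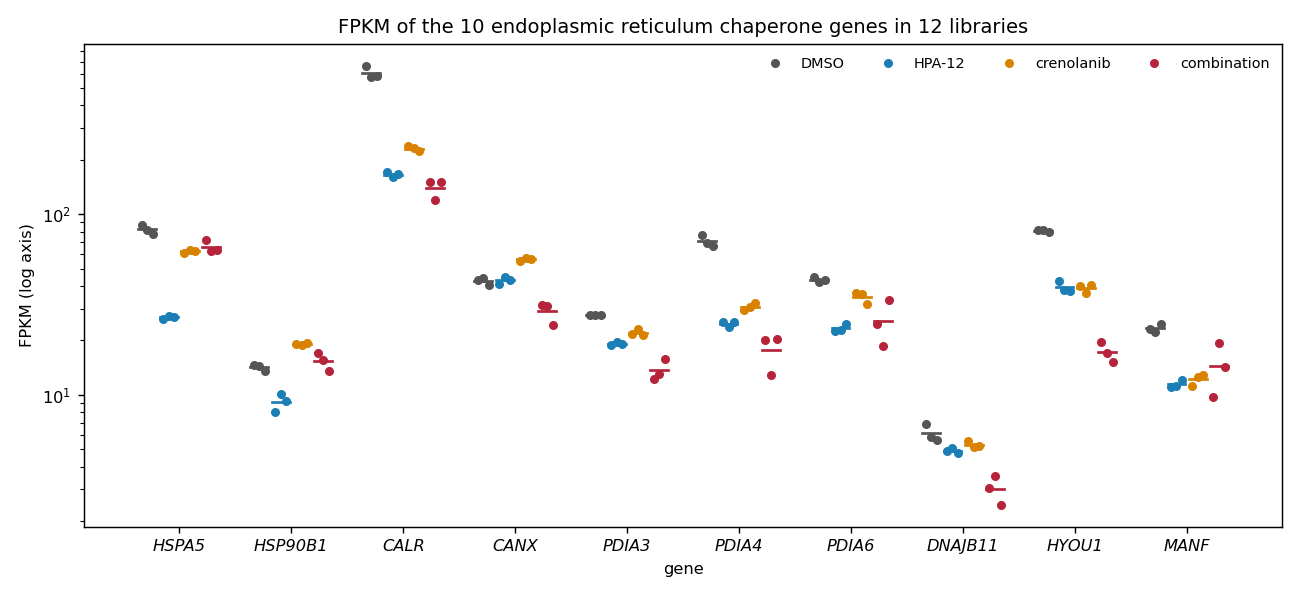
FPKM on a log axis in each of the 12 libraries, with the genes side by side, points for libraries, coloured by group, and a bar for each group mean. HSPA5 has its lowest values in the 3 HPA-12 libraries (26.3 to 27.3 FPKM), whereas HYOU1 has its lowest in the 3 combination libraries (15.1 to 19.5 FPKM).

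HSPA5 read 87.1, 82.0 and 77.8 FPKM in the DMSO libraries, 26.3, 27.3 and 26.9 under HPA-12, 61.1, 63.5 and 62.4 under crenolanib, and 71.6, 62.3 and 63.0 under the combination. The HPA-12 libraries lay far below all others, the crenolanib and combination libraries overlapped, and DMSO was highest. HYOU1, a large HSP70-like protein that releases nucleotide from HSPA5, read 81.3, 81.6 and 79.2 FPKM in DMSO, 42.9, 37.9 and 37.5 under HPA-12, 40.1, 36.5 and 40.7 under crenolanib, and 19.5, 17.0 and 15.1 under the combination. Here the single agents overlapped each other and the combination lay below both. DNAJB11, a J-domain partner of HSPA5, was low throughout, with 5.65 to 6.89 FPKM in DMSO, 4.78 to 5.08 under HPA-12, 5.10 to 5.55 under crenolanib and 2.46 to 3.53 under the combination. MANF, a secreted cofactor that binds HSPA5, read 23.1, 22.1 and 24.6 FPKM in DMSO, 11.1, 11.2 and 12.1 under HPA-12, 11.2, 12.5 and 12.8 under crenolanib, and 9.67, 19.3 and 14.3 under the combination. Its combination libraries spread on both sides of the single agents and rested on an estimated 101 to 233 reads each. The DNAJB11 values there rested on 65 to 103 reads, against 446 to 631 in DMSO.

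HSP90B1, the HSP90 of the ER, read 14.6, 14.4 and 13.6 FPKM in DMSO, 8.0, 10.1 and 9.29 under HPA-12, 19.01, 18.95 and 19.3 under crenolanib, and 17.0, 15.6 and 13.5 under the combination. Crenolanib libraries were the highest and HPA-12 libraries the lowest, with no overlap with the other groups. HSPA5, HSP90B1 and PDIA3 have 1, 2 and 2 pseudogene symbols in the annotation that the expression table does not list. No source used here says how the authors' counting treated reads shared with such copies, so those levels are uncertain.

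Among the lectin chaperones, CALR read 662, 574 and 585 FPKM in DMSO, 170.3, 159.9 and 166 under HPA-12, 237, 232 and 223 under crenolanib, and 149.8, 119.6 and 151 under the combination. All treated libraries were below all DMSO libraries. CANX, the membrane-bound relative of CALR, read 43.0, 44.2 and 40.8 FPKM in DMSO, 41.0, 44.9 and 43.3 under HPA-12, 55.3, 56.9 and 56.4 under crenolanib, and 31.5, 31.1 and 24.3 under the combination. The DMSO and HPA-12 libraries overlapped, the crenolanib libraries were higher and the combination libraries lower. PDIA3, which forms disulphides on glycoproteins held by CALR and CANX, ranged from 27.7 to 27.8 FPKM in DMSO, 18.8 to 19.6 under HPA-12, 21.3 to 23.2 under crenolanib and 12.3 to 15.7 under the combination.

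The other disulphide isomerases were PDIA4 and PDIA6. PDIA4 read 76.9, 69.6 and 66.7 FPKM in DMSO, 25.3, 23.7 and 25.4 under HPA-12, 29.4, 30.5 and 32.2 under crenolanib, and 19.99, 12.9 and 20.4 under the combination. The 4 groups did not overlap. PDIA6 ranged from 42.3 to 45.0 FPKM in DMSO, 22.6 to 24.5 with HPA-12 and 31.7 to 36.6 with crenolanib, and read 24.6, 18.7 and 33.5 with the combination. Its combination libraries spanned the HPA-12 values and reached into the range of crenolanib.

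Most of the chaperones were lower with HPA-12 alone than with DMSO. HSPA5 fell by 1.58 ± 0.07 on the log2(FPKM + 1) scale (standard error, limma, adjusted p = 7.08e-09), CALR by 1.87 ± 0.08 (adjusted p = 1.2e-08) and PDIA4 by 1.48 ± 0.14 (adjusted p = 4.74e-06). HYOU1 fell by 1.02 ± 0.09, MANF by 0.96 ± 0.18, PDIA6 by 0.87 ± 0.16, HSP90B1 by 0.59 ± 0.11 and PDIA3 by 0.51 ± 0.09, with adjusted p-values between 3.24e-06 and 8.43e-04. In all, 8 of 10 members fell and 0 rose at an adjusted p under 0.05, while over all genes tested 23.0% were called lower and 27.7% higher. The median difference was -0.92 over the members and 0.09 over all genes. CANX differed by 0.01 (95% interval -0.19 to 0.22, adjusted p = 0.908) and DNAJB11 by -0.27 (interval -0.55 to 0.01, adjusted p = 0.101). DNAJB11 passed the test when the combination libraries were left out of the fit (adjusted p = 0.0135) or when only HPA-12 and DMSO were fitted (adjusted p = 0.00993). Between the lectin chaperones, the CALR mean was 165 ± 5.24 FPKM with HPA-12 and the CANX mean 43.1 ± 1.95 FPKM.

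Crenolanib alone gave a mixed picture. CALR fell by 1.39 ± 0.08 (adjusted p = 1.19e-07), PDIA4 by 1.18 ± 0.14 (adjusted p = 2.62e-05), HYOU1 by 1.03 ± 0.09 (adjusted p = 2.76e-06) and MANF by 0.88 ± 0.18 (adjusted p = 0.00142). HSPA5 fell by 0.39 ± 0.07 (adjusted p = 4.36e-04) and PDIA3 by 0.32 ± 0.09 (adjusted p = 0.0103). HSP90B1 rose by 0.40 ± 0.11 (adjusted p = 0.00662) and CANX by 0.39 ± 0.09 (adjusted p = 0.00341). The count was 6 lower and 2 higher of 10, against 28.9% lower and 27.4% higher over all genes tested, and the medians were -0.36 and -0.04. PDIA6 (-0.31, interval -0.66 to 0.03, adjusted p = 0.108) and DNAJB11 (-0.18, interval -0.46 to 0.10, adjusted p = 0.247) did not pass. PDIA6 passed without the combination libraries in the fit (adjusted p = 5.27e-04), and the PDIA3 call was lost when mitochondrially encoded genes were left out of the FPKM totals (-0.19, adjusted p = 0.0956).

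Set directly against each other, crenolanib left 5 of 10 chaperones higher than HPA-12 and 0 lower, where 19.5% of all genes tested were called higher and 21.6% lower. HSPA5 was higher by 1.19 ± 0.07 (adjusted p = 1.22e-07), HSP90B1 by 0.99 ± 0.11 (adjusted p = 2.27e-05), PDIA6 by 0.56 ± 0.16 (adjusted p = 0.0139), CALR by 0.48 ± 0.08 (adjusted p = 9.67e-04) and CANX by 0.38 ± 0.09 (adjusted p = 0.00675). The HSPA5 partners did not pass, with HYOU1 differing by -0.01 (interval -0.21 to 0.19), MANF by 0.08 (-0.31 to 0.48) and DNAJB11 by 0.09 (-0.19 to 0.37). PDIA3 (0.19, adjusted p = 0.112) and PDIA4 (0.30, adjusted p = 0.109) did not pass, although both did without the combination libraries in the fit (adjusted p = 0.00649 and 8.79e-04). The medians were 0.34 over the members and -0.05 over all genes. HPA-12 and crenolanib are unrelated compounds and, with the doses not given, these values compare the groups as treated and not the compounds at a matched dose.

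**Figure D2:**
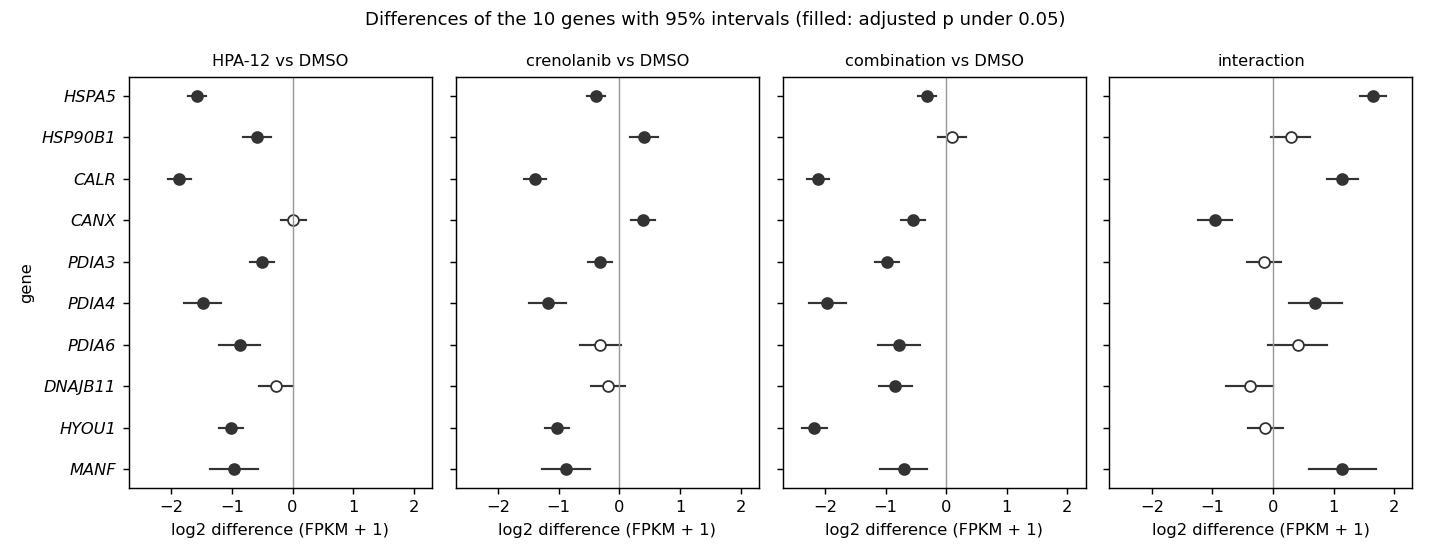
Log2 differences from DMSO on the log2(FPKM + 1) scale for HPA-12, crenolanib and the combination, and the interaction of HPA-12 and crenolanib, with 95% intervals from the limma fit. Among its own differences from DMSO, HSPA5 has its lowest with HPA-12 (-1.58) and HYOU1 with the combination (-2.17). The lowest gene with HPA-12 is CALR (-1.87), while CANX lies above 0 with crenolanib (0.39).

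With the combination, HYOU1 fell by 2.17 ± 0.09 (adjusted p = 1.7e-09), CALR by 2.11 ± 0.08 (adjusted p = 1.19e-09) and PDIA4 by 1.97 ± 0.14 (adjusted p = 1.41e-07) relative to DMSO. These 3 also fell after median-ratio scaling, with differences of -1.51, -1.42 and -1.30. HSPA5 fell by 0.32 ± 0.07 (adjusted p = 0.00108) in the deposited FPKM, but was called higher by 0.36 after that scaling (adjusted p = 6.37e-04), so its direction against DMSO depended on the scaling. On the deposited scale 9 of 10 members fell and 0 rose, beside 56.5% of all genes tested called lower and 14.8% higher. After median-ratio scaling the members' count was 4 lower and 2 higher, beside 3773 lower and 3036 higher of the 11149 genes tested. The share of higher genes among all calls went from 20.8% to 44.6%. PDIA3 fell on both scales (-0.98 and -0.32), and HSP90B1, at 0.10 in the deposited values (interval -0.13 to 0.33, adjusted p = 0.406), was higher by 0.76 after scaling. CANX (-0.55), DNAJB11 (-0.84), PDIA6 (-0.78) and MANF (-0.70) fell in the deposited values, and after scaling stood at 0.12, -0.28, -0.10 and -0.05, none of which passed.

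**Figure D3:**
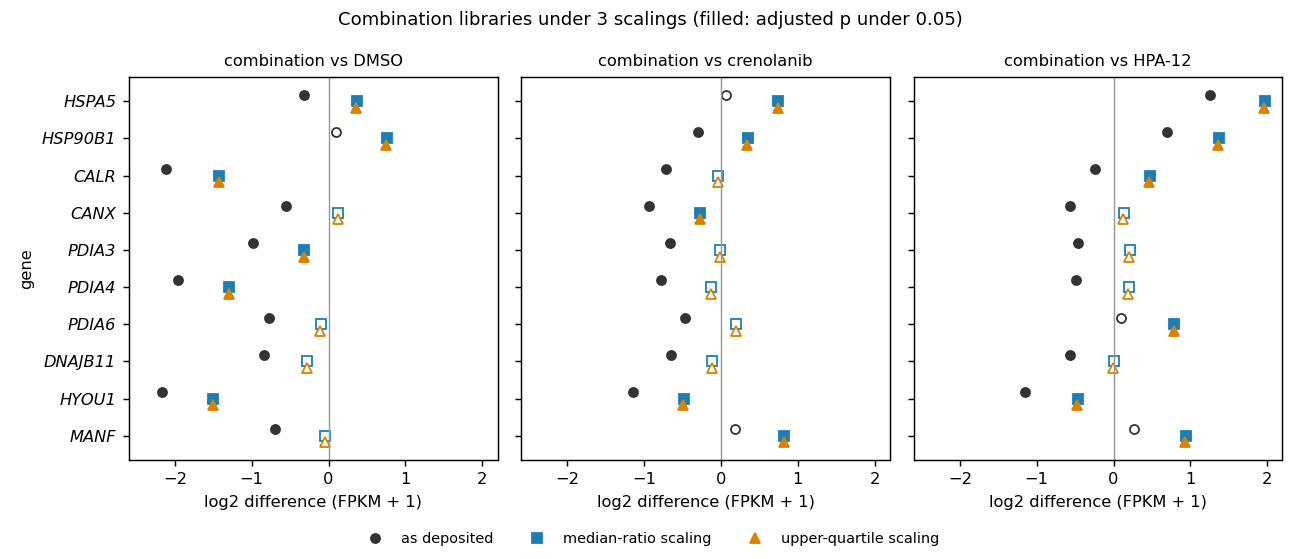
Difference of the combination from DMSO, from crenolanib and from HPA-12 for each gene on the log2(FPKM + 1) scale, as deposited and after median-ratio and upper-quartile scaling. Against DMSO, CALR, HYOU1 and PDIA4 lie below -1 on each scale, whereas HSPA5 lies at -0.32 as deposited and at 0.36 after median-ratio scaling.

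Adding HPA-12 to crenolanib was followed by comparing the combination with crenolanib. HSPA5 differed by 0.07 (interval -0.08 to 0.22, adjusted p = 0.362) and MANF by 0.18 (interval -0.22 to 0.57, adjusted p = 0.391), while 8 of 10 members fell and 0 rose. Over all genes tested 61.2% were called lower and 8.78% higher. HYOU1 fell by 1.15 (adjusted p = 8.38e-07), CANX by 0.94 (adjusted p = 3.76e-06), PDIA4 by 0.78, CALR by 0.72, PDIA3 and DNAJB11 each by 0.66, PDIA6 by 0.47 and HSP90B1 by 0.30. After median-ratio scaling HYOU1 (-0.49) and CANX (-0.28) were the members called lower, and HSPA5 (0.75), MANF (0.82) and HSP90B1 (0.35) were called higher. Of the 11149 genes tested, that scaling left 2927 called lower and 2185 higher. The share of higher genes among all calls went from 12.5% to 42.7%. The HSP90B1 call (adjusted p = 0.0236) was lost without any 1 of the crenolanib libraries, at differences of -0.31 to -0.29, and without combination library 3, at -0.22. The PDIA6 call (adjusted p = 0.0195) was lost without crenolanib library 1 (-0.43) or 2 (-0.44) or combination library 2 (-0.27). With only these groups fitted, neither HSP90B1 (adjusted p = 0.075) nor PDIA6 (adjusted p = 0.0824) passed, at the same differences, and MANF passed without combination library 1 (0.42, adjusted p = 0.00788).

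Relative to HPA-12 alone, the combination held more HSPA5 and more HSP90B1. HSPA5 was higher by 1.26 ± 0.07 (adjusted p = 1.31e-08) and HSP90B1 by 0.69 (adjusted p = 9.34e-05), and after median-ratio scaling by 1.97 and 1.37. HYOU1 was lower on both scales, by -1.16 and -0.46. In the deposited values 6 of 10 members fell and 2 rose, with 57.8% lower and 14.5% higher over all genes tested. After scaling 1 fell and 5 rose, beside 3708 lower and 3062 higher of the 11149 genes tested. The share of higher genes among all calls went from 20.1% to 45.2%. CANX (-0.57), PDIA3 (-0.47), PDIA4 (-0.49), DNAJB11 (-0.57) and CALR (-0.24) were lower as deposited and stood at 0.14, 0.22, 0.21, 0.00 and 0.47 after scaling, of which CALR was called higher. The CALR call as deposited (adjusted p = 0.0209) was lost without HPA-12 library 1 (-0.22) or 3 (-0.24), and without combination library 2, where the difference was -0.14. It was also lost, at the same difference, with a plain fit (adjusted p = 0.0636) and with only these groups fitted (adjusted p = 0.0643). PDIA6 (0.09, interval -0.25 to 0.44) and MANF (0.26, interval -0.13 to 0.65) did not pass as deposited. PDIA6 passed without combination library 2 (0.29) and MANF without combination library 1 (0.50).

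The interaction asked whether HPA-12 changed a gene differently with crenolanib present than without it. For HSPA5 the effect of HPA-12 was -1.58 without crenolanib and 0.07 with it, a difference of 1.65 ± 0.10 (adjusted p = 6.56e-08). CALR showed 1.15 ± 0.12 (adjusted p = 6.59e-06), MANF 1.14 ± 0.25 (adjusted p = 0.00193) and PDIA4 0.70 ± 0.20 (adjusted p = 0.0085), and CANX went the other way at -0.96 ± 0.13 (adjusted p = 5.04e-05). This gave 4 members higher and 1 lower, beside 15.4% higher and 50% lower over all genes tested, and medians of 0.35 and -0.65. HSPA5, CALR, PDIA4 and MANF were called in the same direction in 20 of 20 alternative fits, with ranges of 1.55 to 2.35, 1.04 to 1.86, 0.59 to 1.38 and 0.92 to 1.80. CANX was called in 18 of 20, the exceptions being the median-ratio (-0.26, adjusted p = 0.0956) and upper-quartile scalings. HYOU1 (-0.13, interval -0.41 to 0.16), PDIA3 (-0.15, -0.43 to 0.13), HSP90B1 (0.29, -0.04 to 0.62), PDIA6 (0.41, -0.08 to 0.89) and DNAJB11 (-0.39, -0.78 to 0.01) did not pass as deposited. After median-ratio scaling 8 were higher and 0 lower, beside 2831 higher and 3284 lower of the 11149 genes tested. The share of higher genes among all calls went from 23.6% to 46.3%. Without combination library 2, PDIA6 (0.61) and DNAJB11 (-0.48) passed, and without combination library 3, HSP90B1 (0.37) and PDIA3 (-0.25) did.

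The 10 transcripts summed to 999 ± 59.7 FPKM in DMSO, 367 ± 4.51 under HPA-12, 512 ± 6.40 under crenolanib and 342 ± 25.1 under the combination. These sums depend on how libraries are scaled to each other, and no order of the HPA-12 and combination sums is read from them. The share of a gene in the sum of its own library does not depend on that scaling. HSPA5 made up 8.24 ± 0.23% of that total in DMSO libraries, 7.30 ± 0.22% in HPA-12 libraries, 12.2 ± 0.31% in crenolanib libraries and 19.2 ± 1.21% in combination libraries. Its share was highest in the 3 combination libraries, with 19.9, 19.9 and 17.8%, and no group overlapped another. CALR took 60.8 ± 1.22% in DMSO and 45.0 ± 0.89%, 45.0 ± 0.85% and 40.9 ± 2.39% in the treated groups, of which the HPA-12 and crenolanib libraries overlapped. CANX took 4.28% in DMSO, 11.7% under HPA-12, 11.0% under crenolanib and 8.52% under the combination. Because CALR was the largest part of each sum, a lower CALR level by itself raises the shares of the other genes. The CANX level was 42.6 FPKM in DMSO and 43.1 FPKM under HPA-12. With n = 3 per group an exact permutation test of such a share cannot reach a two-sided p below 0.10, so the shares are given as values.

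**Figure D4:**
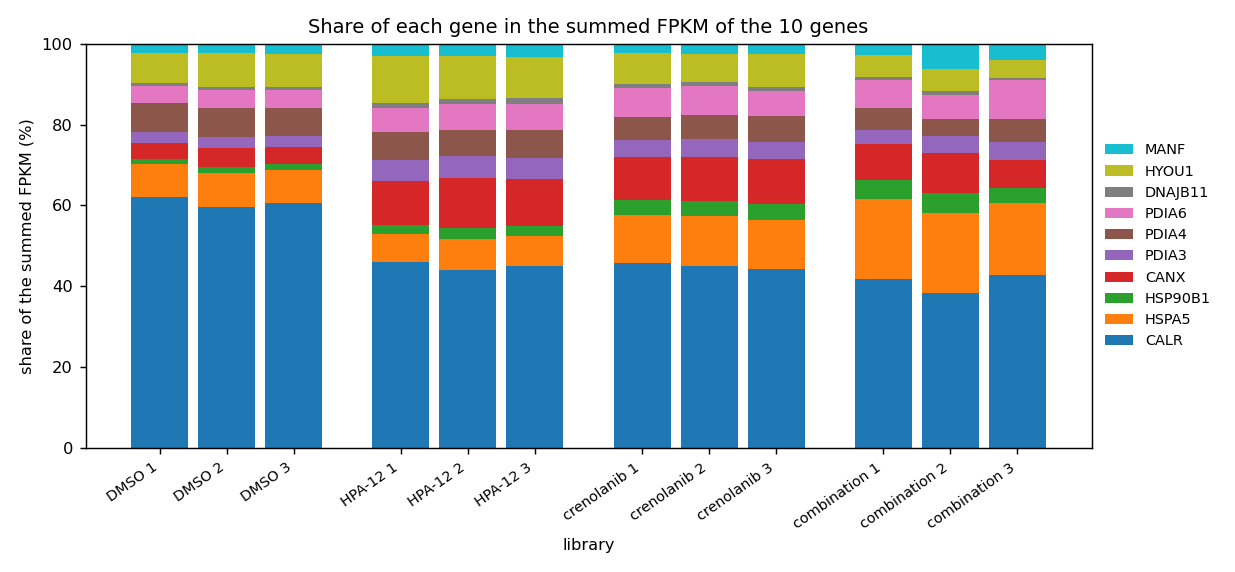
Share of each gene in the summed FPKM of the 10 transcripts, in percent, stacked for each of the 12 libraries from 0 to 100. The HSPA5 share is 17.8 to 19.9% in the combination libraries and 7.08 to 8.51% in the DMSO and HPA-12 libraries.

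Ratios of HSPA5 to other members were also taken in FPKM of the same library. HSPA5 to HYOU1 was 1.02 ± 0.046 in DMSO, 0.683 ± 0.061 under HPA-12, 1.60 ± 0.122 under crenolanib and 3.84 ± 0.292 under the combination (3.67 to 4.18). HSPA5 to DNAJB11 was 13.5, 5.47, 11.8 and 22.3 in the same order. HSPA5 to MANF was 3.54, 2.35, 5.12 and 5.01, with combination libraries from 3.23 to 7.41 on both sides of the crenolanib libraries. HSPA5 to CALR was 0.136, 0.162, 0.271 and 0.472 in that order. HSPA5 to CANX instead was 1.93 in DMSO, 0.623 under HPA-12, 1.11 under crenolanib and 2.29 under the combination, and HSPA5 to HSP90B1 was highest in DMSO at 5.79, against 2.96, 3.26 and 4.29. The combination libraries thus held more HSPA5 per HYOU1 and per CALR transcript than any other library, and less per HSP90B1 transcript than the DMSO libraries.

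Of 35 further ER folding genes in the table (other disulphide isomerases, oxidases, J-domain partners, translocon subunits, glucosidases and retrieval receptors), 32 were tested. With HPA-12 13 fell and 2 rose (median -0.29), and with crenolanib 13 fell and 7 rose (median -0.16). With the combination 19 fell and 6 rose (median -0.97) in the deposited values, and 15 fell and 11 rose after median-ratio scaling (median -0.35). Over all genes tested 23.0%, 28.9% and 56.5% were called lower in these comparisons as deposited and 27.7%, 27.4% and 14.8% higher, so the deposited count for the combination lay near that background. After median-ratio scaling 3773 of the 11149 genes tested were called lower and 3036 higher with the combination. SDF2L1, a partner of the J-domain proteins that serve HSPA5, fell by 1.96 with HPA-12 and by 1.26 with crenolanib (adjusted p = 6.98e-06 and 2.01e-04). Its interaction was 2.202 (adjusted p = 2.68e-05) and 2.84 after scaling, and its levels were 26.6 ± 1.89, 6.23 ± 1.61, 10.6 ± 0.49 and 13.0 ± 3.35 FPKM in DMSO, HPA-12, crenolanib and the combination. P4HB, the founding protein disulphide isomerase, fell with differences of -0.35, -0.67 and -2.005 for HPA-12, crenolanib and the combination, the last being -1.32 after scaling. DNAJC3, a J-domain partner of HSPA5, instead rose by 0.70 under HPA-12, 1.34 under crenolanib and 0.29 under the combination (0.95 after scaling). CRELD2, an ER stress-induced protein, fell with differences of -0.72, -0.68 and -0.57, the last being 0.05 after scaling. KDELR3, a receptor that returns escaped chaperones to the ER, was listed at 0 in the 3 combination libraries and lay between 1.36 and 1.54 FPKM in DMSO. The combination libraries, which were shallower, listed 7894 to 8049 genes at 0 against 5137 to 5217 in DMSO, and HSPE1, which every cell uses, was at 0 in combination library 2, so no absence is read from these zeros.

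Among 12 regulators of the unfolded protein response, all tested, HPA-12 gave 1 higher and 2 lower, crenolanib 1 higher and 4 lower, and the combination 1 higher and 6 lower (1 and 3 after median-ratio scaling). As deposited, these lower counts lay below or near the shares over all genes tested, 23.0%, 28.9% and 56.5%, and the higher counts below 27.7%, 27.4% and 14.8%. With the combination after median-ratio scaling, 3773 of the 11149 genes tested were called lower and 3036 higher. XBP1 fell by 1.35 under HPA-12, 0.93 under crenolanib and 0.95 under the combination (-0.27 after scaling, adjusted p = 0.206), from 60.3 ± 2.66 FPKM in DMSO to 23.0 ± 1.01, 31.3 ± 2.26 and 31.7 ± 9.54 FPKM. ATF4, a central factor of the integrated stress response, was higher by 0.87, 0.68 and 0.64, the last being 1.33 after scaling (adjusted p = 2.36e-07). ATF6 differed from DMSO by 0.44, 0.50 and -0.38 (adjusted p = 0.19, 0.129 and 0.219), and the sign of the last turned after scaling (0.16, adjusted p = 0.648). DDIT3, which encodes CHOP, differed by 0.19, 0.22 and 0.37 (adjusted p = 0.756, 0.695 and 0.475), the last being 0.89 after scaling (adjusted p = 0.12), with libraries from 1.14 to 6.94 FPKM. For DDIT3 the 95% interval of the HPA-12 difference ran from -0.81 to 1.18.

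The genes whose pattern lay nearest to that of HSPA5 were ranked by the root mean square difference of log2(FPKM + 1), each less its DMSO mean, over the 12 libraries and 6229 genes averaging 5 FPKM or more. The 5 nearest outside the 10 were NPM1 (0.09), IARS1 (0.15), CYCS (0.15), HNRNPA1 (0.16) and ADK (0.18). NPM1, a nucleolar chaperone, had means of 74.5, 25.9, 58.2 and 62.0 FPKM in DMSO, HPA-12, crenolanib and the combination. NPM1 and HNRNPA1 have near-identical processed copies in the genome, so their levels are uncertain. Of the other chaperones PDIA6 ranked 166, MANF 228, PDIA3 548, HSP90B1 667, CANX 1943, PDIA4 2109, HYOU1 2865 and CALR 3005, while DNAJB11 lay under the limit on the mean.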

How the data were processed

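The 12 libraries were analysed from a single table of FPKM values that the authors deposited, with 1 value per gene and library per the file headers. No source used here gives the aligner, counter, annotation or genome build. Columns were matched to samples by title (crenolanib is spelled Creno or Creon), and 0 columns of values stayed unmatched. Of 20036 identifiers, 20011 had a symbol in the gene name table. The members and gene lists were chosen with earlier results of these data known.

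Genes reaching 1 FPKM in 3 or more of 12 libraries (11149) were fitted as log2(FPKM + 1) with limma 3.58.1 in R 4.3.3 (statmod 1.5.0), with 1 term for the 4 groups, a mean trend and robust moderation. P-values were adjusted by Benjamini-Hochberg over all tested genes, with a threshold of 0.05. A log2 difference on this scale understates the change of low genes. The fit was tested on simulated data for HPA-12 and crenolanib against DMSO, with a spread taken without the combination group. That test does not cover comparisons with the combination or the interaction. All 10 members are named in every comparison, and listed genes by counts with a set of named examples. The genes most like HSPA5 are the 5 of smallest distance.

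Depth was estimated from the steps between low FPKM values and GENCODE release 29 gene lengths. Only 30.3 to 39.4% of low values came out whole within 0.01 read, so no count test was run, and depth and reads are estimates that cover counting only. Alternatives were a pseudocount of 0.1, other filters, median-ratio and upper-quartile scaling, mitochondrial genes left out, a plain fit, fewer groups, a replicate term and each library left out. Promoters are from RefSeq.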

Additional observations from a re-analysis of the deposited data

Results flagged for a closer look

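For 5 of the 10 chaperones the effect of HPA-12 on the log2(FPKM + 1) scale differed between cells with and without crenolanib, by the interaction term of the limma fit with p-values adjusted over all tested genes. The difference was 1.65 for HSPA5 (adjusted p = 6.56e-08), 1.15 for CALR (adjusted p = 6.59e-06), 1.14 for MANF (adjusted p = 0.00193), 0.70 for PDIA4 (adjusted p = 0.0085) and -0.96 for CANX (adjusted p = 5.04e-05). Over all genes tested 15.4% were called higher and 50% lower. The CANX call was lost with median-ratio (-0.26, adjusted p = 0.0956) and upper-quartile scaling (-0.27, adjusted p = 0.0833), under which 8 members were called, all higher. Over all genes tested the median was -0.65 as deposited and -0.13 after median-ratio scaling. With that scaling 2831 of the 11149 genes were called higher and 3284 lower. The mitochondrial share, the erythroid markers and the depth of the combination libraries moved with this comparison, and their part in it was not tested.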

How the results depend on the processing

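Outside the 2 rescalings, 952 of 983 values of single chaperones over the alternatives stayed on their side of the threshold, 15 lost it and 16 gained it. A reversal, meaning a change of sign in a value called before or after, occurred in 0. Values called in neither fit could change sign. For MANF the combination against crenolanib stood at 0.18 in the main fit and at -0.04 in its lowest alternative. With median-ratio or upper-quartile scaling, which gave the same counts, the combination against DMSO had 4 members lower and 2 higher, against crenolanib 5 called (2 lower, 3 higher), against HPA-12 1 lower and 5 higher, and the interaction 8 called (0 lower, 8 higher). Of the 11149 genes tested, median-ratio scaling called 3773 lower and 3036 higher against DMSO, and 2927 and 2185 against crenolanib. It called 3708 and 3062 against HPA-12, and 3284 and 2831 for the interaction. Under the median-ratio and upper-quartile scalings, in that order, the reversed values against DMSO were HSPA5 0.36 and 0.36 and CANX 0.12 and 0.12. Against crenolanib they were HSP90B1 0.35 and 0.34 and PDIA6 0.20 and 0.19. Against HPA-12 they were CALR 0.47 and 0.46, CANX 0.14 and 0.13, PDIA3 0.22 and 0.21, PDIA4 0.21 and 0.19, and DNAJB11 0.0034 with median-ratio scaling. For the interaction they were PDIA3 0.52 and 0.51 and HYOU1 0.55 and 0.54. The DNAJB11 interaction, called on none of these scales, also changed sign, from -0.39 as deposited to 0.17 and 0.16. With mitochondrially encoded genes left out, the interaction had 2 members lower. Leaving out 1 library at a time gave 0 to 1 members higher in the combination against crenolanib (1 without combination library 1) and 1 to 2 lower in the interaction (2 without combination library 2 or 3). The cause of these changes was not tested. With the replicate number as a block, 8 members were called for HPA-12 against DMSO, 8 for crenolanib and 9 for the combination, as without it, and all genes called for HPA-12 went from 5652 to 5539. Same-numbered libraries deviated together with r of -0.03 to 0.07, so the numbers were not taken to pair samples. DNAJB11 could not be tested under a filter of a mean of at least 5 FPKM. The combination libraries were the shallowest, and the fit uses 1 pooled error per gene for all groups. Replicates correlated with r of 0.907 to 0.909 in the combination group and 0.984 to 0.997 in the other groups. Errors, intervals and p-values of comparisons that hold the combination group may therefore be too small.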

Other observations

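Chaperones outside the ER were also measured. With HPA-12, of 14 cytosolic and mitochondrial chaperones, all tested, 13 fell and 1 rose (median -1.14), whereas with crenolanib 6 fell and 3 rose (median -0.13). With the combination 8 of the 14 fell and 3 rose as deposited, and 8 fell and 5 rose after median-ratio scaling. Over all genes tested 23.0% were called lower and 27.7% higher with HPA-12, and 28.9% and 27.4% with crenolanib. With the combination these shares were 56.5% and 14.8% as deposited, and median-ratio scaling called 3773 lower and 3036 higher of 11149. HSPA1A averaged 29.7, 13.7, 44.4 and 128 FPKM in DMSO, HPA-12, crenolanib and the combination, and HSPA1B 16.4, 10.2, 40.3 and 140. HSPA8, the constitutive cytosolic HSP70, read 622 ± 28.7 FPKM in DMSO, 83.5 ± 1.49 under HPA-12, 240 ± 7.14 under crenolanib and 178 ± 6.82 under both, and HSP90AB1, the constitutive cytosolic HSP90, read 724 ± 21.0, 127 ± 2.73, 319 ± 6.55 and 248 ± 7.30 FPKM. The combination against crenolanib was -0.44 for HSPA8 and -0.37 for HSP90AB1 as deposited, but 0.25 (adjusted p = 0.0017) and 0.32 (adjusted p = 2.2e-04) after median-ratio scaling, so that direction depended on the scaling. With HPA-12 they fell by 2.88 and 2.50 on the log2 scale, against 1.58 for HSPA5 and 0.59 for HSP90B1, and the difference between these falls was not tested. HSPD1, the mitochondrial chaperonin, fell by 2.42 and HSPA9, the mitochondrial HSP70, by 1.21. Pseudogene copies were not looked up for the chaperones outside the ER, so their levels may be uncertain as well. The interaction was higher for 11 of the 14 and lower for 1 (median 1.21, and 1.90 after median-ratio scaling). Over all genes tested 15.4% were called higher and 50% lower for the interaction (median -0.65, and -0.13 after that scaling).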
